A study of Danio rerio with 6 samples.

Results

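The heme synthesis and erythroid genes described here were 10 rows of a gene table with 39214 rows, picked out by gene name from a list drawn up with earlier results of these data known. They comprised 6 enzymes of heme synthesis used in all tissues (alas1, alad, hmbsb, urod, cpox and fech), 3 red cell genes (alas2, slc4a1a and gata1a) and the heme-degrading enzyme hmox1a. Of the 10 genes, 8 reached at least 0.5 FPKM in at least 3 of 6 libraries and were tested among 23409 genes, and these 8 reached that level in all 6 libraries. The alas2 and gata1a rows did not pass. FPKM is the number of sequenced fragments per kilobase of gene and per sequencing depth of the library.

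Heme is the iron-containing ring that carries oxygen in hemoglobin and electrons in cytochromes. Its synthesis starts in the mitochondrion with 5-aminolevulinate synthase, of which alas1 encodes the form of all tissues and alas2 the form of red cell precursors, passes through the cytosol, and ends in the mitochondrion when ferrochelatase inserts iron. In zebrafish, mutants of alas2, urod, fech, slc4a1a and gata1a were all found as fish with too few, pale or light-sensitive red cells.

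Zebrafish larvae of the AB wild type were compared at 5 days post-fertilization (dpf). The Lurasidone group was kept in 4 mg/L Lurasidone, an antipsychotic drug, from 3 hours post-fertilization (hpf) in the sample labels and from 5 hpf in the study's methods. The control group received the solvent DMSO according to the methods. Each group had 3 libraries, which the methods describe as separate biological replicates of collected entire larvae, although they also state that RNA came from brain tissue.

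The libraries held 11749887 to 12553624 fragments on genes in the Lurasidone group and 12210400 to 15107664 in the control group. A count of 3 fragments was taken as the floor of detection, and such limits cover counting error only. Muscle, gut, skin and liver genes were abundant in all 6 libraries beside brain genes, with 5 muscle markers summing to between 14250 and 15172 FPKM in the Lurasidone libraries and between 11143 and 19620 FPKM in the controls. The RNA thus held transcripts of tissues other than brain. In such bulk RNA, fewer cells of a type and less RNA per cell cannot be told apart. Mitochondrial transcripts took 4.1 to 4.26% of the fragments in the Lurasidone libraries and 3.60, 1.41 and 3.96% in control replicates 1, 2 and 3, so that control replicate 2 stood apart.

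The 2 genes of the set that passed the test were hmox1a, 2.74 times as high in mean FPKM in the Lurasidone group as in the control group, and hmbsb, 2.03 times as high. Thus 2 of 8 tested genes rose and 0 fell at an adjusted p of at most 0.05 (limma, adjusted over all 23409 tested genes), where 5.79% of all tested genes rose and 3.90% fell, 9.70% in all. The same shares stand beside the counts of every list below. The groups did not overlap for 3 of the 8 genes, beside 33.3% of all tested genes. At an unadjusted p under 0.05 there were 4 of the 8 genes, beside 6591 of all 23409 tested genes. Of the 4, alas1 and cpox were on the lower side. The median log2 fold change (log2FC) was 0.13 over the 8 genes and -0.02 over all tested genes. All log2FC values were fitted on log2(FPKM + 1), which understates the change of genes with low FPKM.

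**Figure D1:**
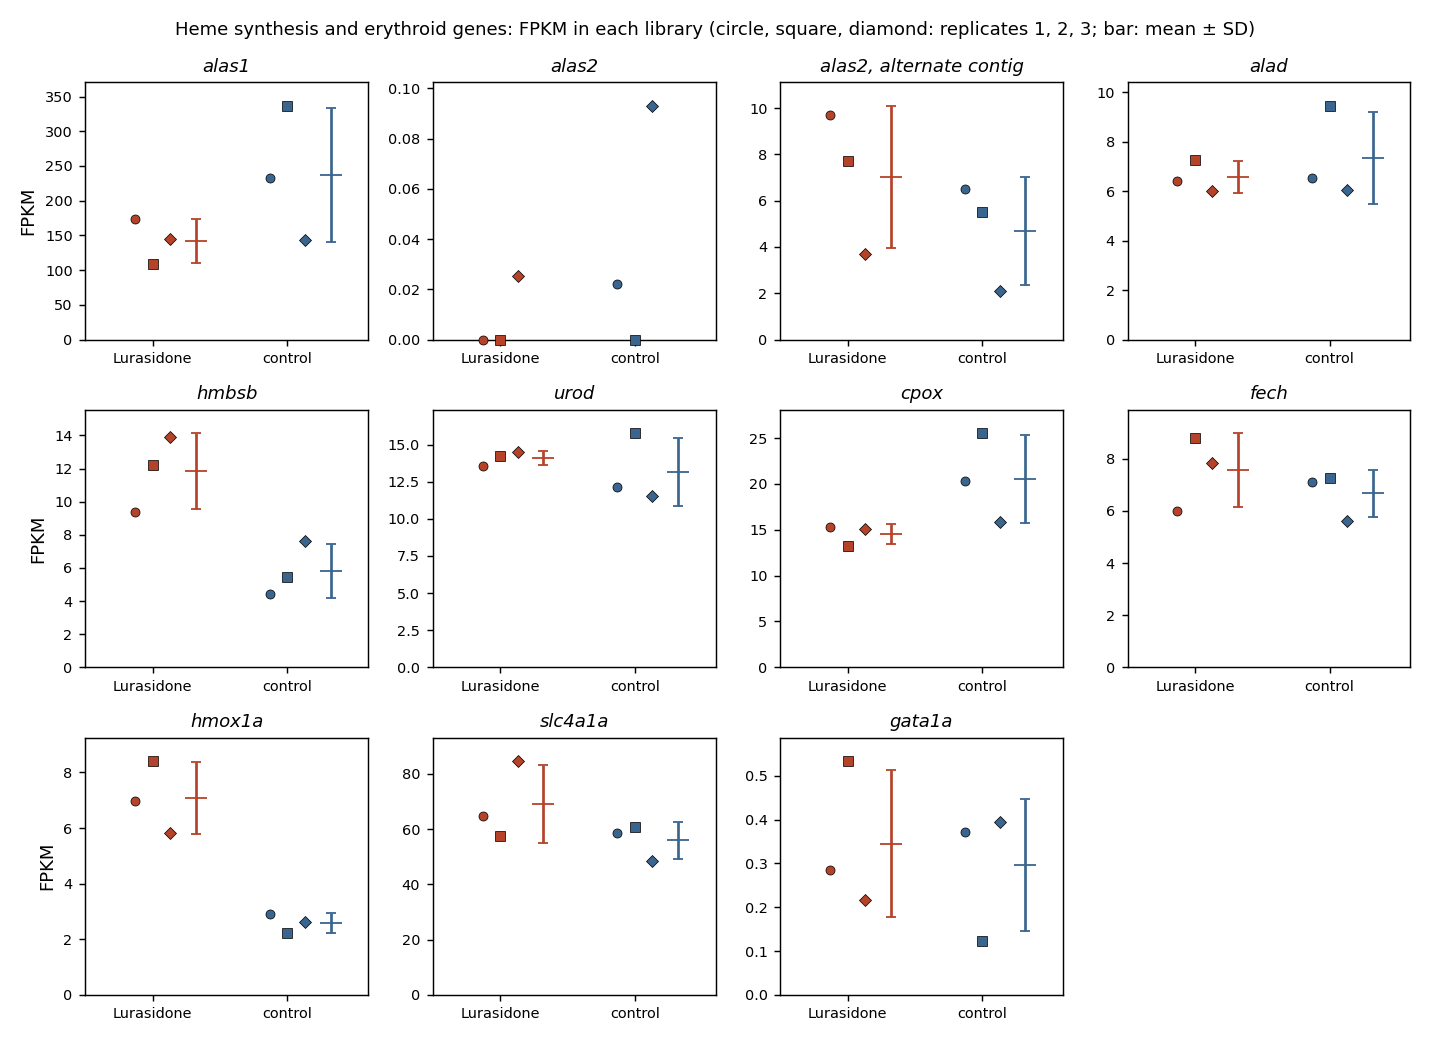
FPKM of the 10 genes, and of the alas2 model on an alternate contig, in the 3 Lurasidone libraries (left in each panel) and the 3 control libraries (right), with the mean ± SD beside the points. Each axis starts at 0 and has its own range, and no bar is drawn for the alas2 row because its SD exceeds its mean. The groups were fully apart for hmox1a and hmbsb (Lurasidone above) and for cpox (Lurasidone below).

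By level, the set spanned a wide range in both groups. In the Lurasidone group the order of mean FPKM was alas1 (142 ± 32.0, SD, n = 3), slc4a1a (68.9 ± 14), cpox (14.5 ± 1.12), urod (14.1 ± 0.488), hmbsb (11.8 ± 2.29), fech (7.56 ± 1.42), hmox1a (7.07 ± 1.30), alad (6.57 ± 0.644) and gata1a (0.345 ± 0.167). Neighbours in this order from cpox to alad differed by less than the sum of their SDs, except hmbsb and fech. In the control group alas1 (238 ± 96.5) was again first, followed by slc4a1a (55.9 ± 6.58), cpox (20.6 ± 4.82), urod (13.1 ± 2.29), alad (7.34 ± 1.85), fech (6.67 ± 0.908), hmbsb (5.84 ± 1.62), hmox1a (2.58 ± 0.357) and gata1a (0.296 ± 0.151). There, hmox1a lay below hmbsb by more than the sum of their SDs, while alad, fech and hmbsb overlapped. The alas2 row was last in both groups.

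The first step of the pathway was represented mainly by alas1 (ENSDARG00000021059, GRCz11 chromosome 11, 260763 to 270210, minus strand). Its FPKM was 173, 109 and 145 in the Lurasidone libraries, against 232, 337 and 144 in the control libraries. Control replicate 3 lay between the Lurasidone libraries, so the groups overlapped. The mean was 40.1% lower in the Lurasidone group, with a log2FC of -0.68 (SE 0.30, 95% interval -1.35 to -0.0003, limma adjusted p = 0.177), and the difference did not pass the test. It depended on single control libraries: without control replicate 3 the log2FC was -0.995 and passed (limma adjusted p = 0.0326), and without control replicate 2, whose mitochondrial share was low, it was -0.39 (limma adjusted p = 0.402). Control replicate 2 was the highest control library for 6 of the 8 tested genes of the set, as it was for 37.5% of all tested genes, and the part of this library in the differences was tested only by leaving it out.

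The erythroid form of the same enzyme could not be read from the row that bears its name. The alas2 row (ENSDARG00000038643, GRCz11 chromosome 8, 21353878 to 21369028, plus strand) held 0, 0 and 1 fragments in the Lurasidone libraries and 1, 0 and 4 in the control libraries. Only control replicate 3 was above the floor of 3 fragments, and no fold change is given for this row. The table also held 4321 rows on alternate contigs, that is, on second versions of parts of the GRCz11 chromosomes, none of which had a gene name. A row without a name (on the contig CHR_ALT_CTG8_1_6, 21353829 to 21369271, plus strand) shared the strand, the position and the zebrafish erythroid 5-aminolevulinate synthase protein entry with alas2. This alternate alas2 model had 9.71, 7.71 and 3.70 FPKM in the Lurasidone libraries, against 6.52, 5.51 and 2.08 FPKM in the control libraries, from 128 to 339 and from 79 to 262 fragments. In both groups the library numbered 3 was the lowest, and the groups overlapped.

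The alternate alas2 model averaged 7.04 ± 3.06 FPKM in the Lurasidone group and 4.70 ± 2.33 FPKM in the control group (SD, n = 3 each). Its log2FC was 0.51 (SE 0.37, 95% interval -0.33 to 1.35, limma adjusted p = 0.4), so neither a change nor its absence was shown. Adding it to the alas2 row gave 0.50 (limma adjusted p = 0.403). An elastase model on the opposite strand overlaps the alternate alas2 model and had 2.73 to 7.89 FPKM over the 6 libraries. The named alas2 row likewise overlaps the elastase gene ela2l on the opposite strand. There ela2l had 24.3 to 58.8 FPKM, while the alas2 row held at most 4 fragments in a library. The use of strand in the counting was not given in the sources used here, so reads of overlapping models may not be separated. Among the 10 genes, alas2 alone had such an alternate row.

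Within each library, the alternate alas2 model was compared with alas1 as log2(FPKM + 1), a comparison chosen after the values had been seen. The difference was -4.02, -3.66 and -4.95 in the Lurasidone libraries, against -4.95, -5.70 and -5.56 in the control libraries. The erythroid form was thus below the general form in all 6 libraries, and the groups touched at Lurasidone replicate 3 and control replicate 1. The mean difference was 1.19 higher in the Lurasidone group (two-sided exact permutation p = 0.1, the smallest value that 3 against 3 libraries can give, and 0.12 adjusted over 6 such pairs). The comparison with the named alas2 row gave 0.64 (exact permutation p = 0.3), but that row was at or near 0 and the difference is almost wholly that of alas1.

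The second enzyme, alad (ENSDARG00000100372, chromosome 5, 54482325 to 54497319, minus strand), encodes aminolevulinate dehydratase, which joins aminolevulinate molecules into porphobilinogen. It had 6.42, 7.27 and 6.01 FPKM in the Lurasidone libraries and 6.52, 9.45 and 6.04 FPKM in the control libraries. The ranges overlapped, and the log2FC was -0.12 (SE 0.19, 95% interval -0.54 to 0.30, limma adjusted p = 0.708).

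The next enzyme, hydroxymethylbilane synthase, builds the linear tetrapyrrole from porphobilinogen, and its gene hmbsb rose in Lurasidone larvae. For hmbsb (ENSDARG00000055991, chromosome 15, 23511407 to 23529945, minus strand), FPKM was 9.40, 12.2 and 13.9 in the Lurasidone libraries, against 4.42, 5.47 and 7.61 in the control libraries. Every Lurasidone library was above every control library, as was the case for 17.1% of all tested genes. The log2FC was 0.92 (SE 0.21, 95% interval 0.44 to 1.40, limma adjusted p = 0.0282), below the log2 size of 1 used for a DEG (differentially expressed gene). The call was lost when a library was left out: the adjusted p was 0.0853 without Lurasidone replicate 2, 0.0974 without Lurasidone replicate 3, 0.113 without control replicate 1 and 0.0681 without control replicate 2. The log2FC then lay between 0.77 and 0.89. Genes on the opposite strand overlap hmbsb, with at most 1.11 FPKM in any library.

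Zebrafish carry a second gene for the same enzyme, hmbsa. It had 7.05, 6.74 and 8.04 FPKM in the Lurasidone libraries and 7.65, 9.41 and 6.81 FPKM in the control libraries, with a log2FC of -0.11 (limma adjusted p = 0.715). Within libraries, hmbsb minus hmbsa on log2(FPKM + 1) was 0.37, 0.77 and 0.72 in the Lurasidone group and -0.67, -0.69 and 0.14 in the control group. In the Lurasidone libraries hmbsb was always the higher of the pair, and in the control libraries it was the higher one only in replicate 3. The means differed by 1.03 (exact permutation p = 0.1, adjusted 0.12), in a pair chosen after its values had been seen.

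Of the later cytosolic and mitochondrial steps, urod and fech did not pass the test, and cpox was lower in each Lurasidone library without passing it. For urod (ENSDARG00000006818, chromosome 2, 27556168 to 27575803, minus strand), which encodes uroporphyrinogen decarboxylase, FPKM was 13.6, 14.3 and 14.5 in the Lurasidone libraries and 12.2, 15.8 and 11.5 in the control libraries. The Lurasidone values lay inside the control range, with a log2FC of 0.11 (SE 0.16, 95% interval -0.26 to 0.47, limma adjusted p = 0.707). For cpox (ENSDARG00000062025, chromosome 8, 18601252 to 18613948, minus strand), which encodes coproporphyrinogen oxidase, FPKM was 15.3, 13.3 and 15.1 in the Lurasidone libraries, against 20.3, 25.5 and 15.9 in the control libraries. The groups were apart, as for 16.2% of all tested genes on this side, but control replicate 3 was close to the Lurasidone values. The log2FC was -0.45 (SE 0.19, 95% interval -0.87 to -0.03, limma adjusted p = 0.153). For fech (ENSDARG00000003462, chromosome 21, 1647990 to 1670264, plus strand), which encodes ferrochelatase, FPKM was 6.01, 8.81 and 7.86 in the Lurasidone libraries and 7.13, 7.26 and 5.63 in the control libraries. These ranges overlapped, with a log2FC of 0.15 (SE 0.18, 95% interval -0.26 to 0.56, limma adjusted p = 0.622).

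The 6 general heme enzymes therefore gave 1 gene that rose and 0 that fell, 3 of 6 were higher and 3 lower, and their median log2FC was -0.01. The difference of cpox from urod within libraries was 0.16, -0.10 and 0.06 in the Lurasidone group and 0.69, 0.66 and 0.43 in the control group. It was lower by 0.56 on the log2 scale in the Lurasidone group (exact permutation p = 0.1, adjusted 0.12), and this pair was also chosen after its values had been seen.

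Around the members stood 21 further genes of heme synthesis and of the mitochondrial supply of glycine, iron and iron-sulfur clusters, 20 of them tested. Of these, 2 rose and 0 fell, beside 5.79 and 3.90% of all tested genes, and the median log2FC was 0.09. The gene tmem14cb, related to a mammalian transporter of porphyrin precursors in the inner mitochondrial membrane, had 18.0, 17.6 and 20.9 FPKM in the Lurasidone libraries against 10.2, 12.9 and 9.86 FPKM in the control libraries (log2FC 0.73, limma adjusted p = 0.0239). Its paralog tmem14ca had a log2FC of -0.23 (limma adjusted p = 0.478). The gene abcb6a, a porphyrin transporter of the ABC family, had 6.11, 6.27 and 6.98 FPKM in the Lurasidone libraries and 4.01, 3.70 and 3.10 FPKM in the control libraries (log2FC 0.70, limma adjusted p = 0.0268). Both groups of values were apart for each gene. Neither call was firm: abcb6a lost it when any of the 6 libraries was left out (limma adjusted p 0.0522 to 0.0937), and tmem14cb lost it when a Lurasidone library or control replicate 1 was left out (up to 0.103).

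Of the supply genes known from anaemic zebrafish mutants, slc25a37 (mitoferrin 1, the iron importer of red cell mitochondria) had 1.49, 1.43 and 1.73 FPKM in the Lurasidone libraries against 0.846, 0.554 and 1.00 FPKM in the control libraries. The groups were apart, but the log2FC of 0.51 did not pass (limma adjusted p = 0.103). The gene glrx5, needed for iron-sulfur clusters, was apart on the other side, with 38.5, 36.9 and 35.0 FPKM in the Lurasidone libraries and 54.2, 71.7 and 43.1 FPKM in the control libraries (log2FC -0.57, limma adjusted p = 0.0943).

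**Figure D2:**
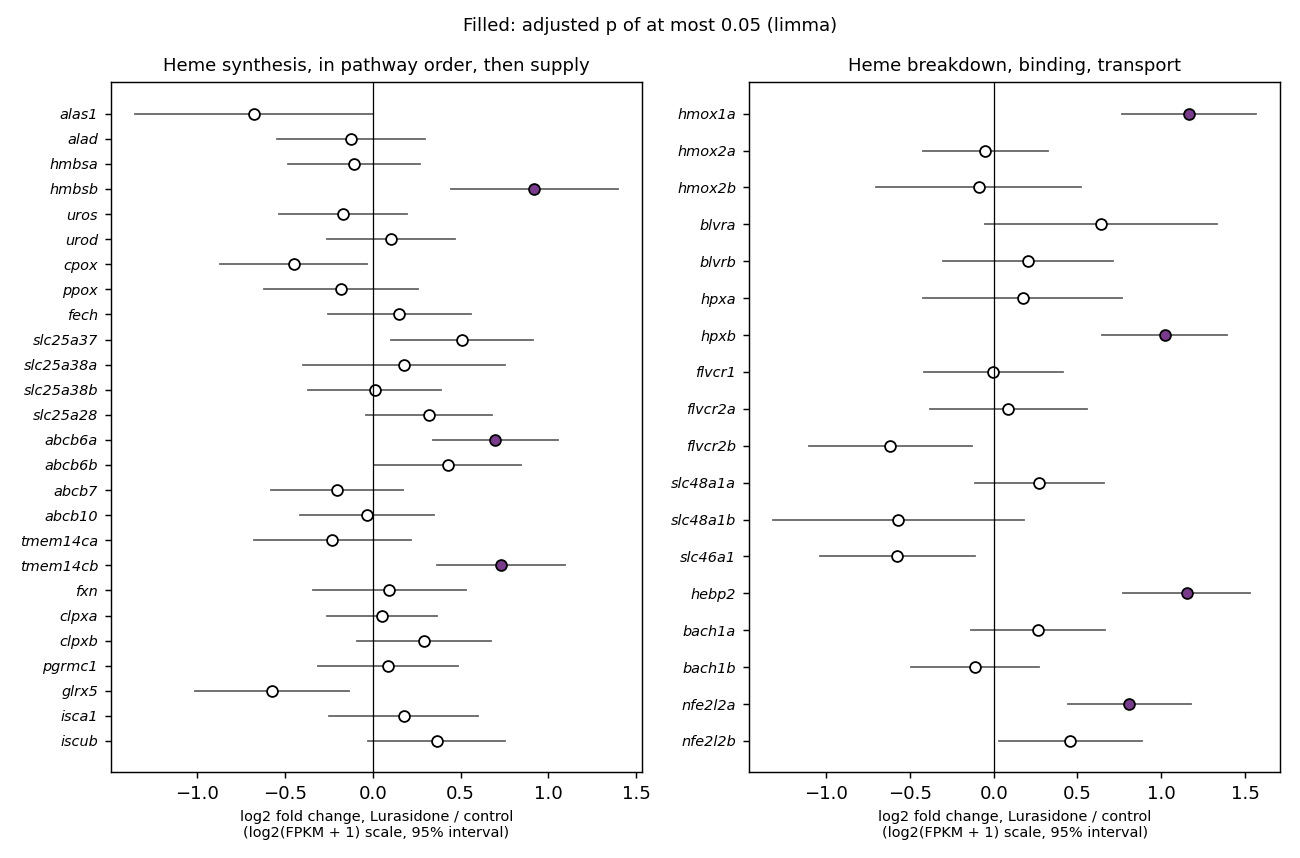
Log2 fold change (log2FC), Lurasidone over control, on the log2(FPKM + 1) scale with its 95% interval from limma, for the tested genes of heme synthesis in pathway order and then of supply (left) and of heme breakdown, binding and transport (right). Filled points have an adjusted p of at most 0.05. In the synthesis panel hmbsb, abcb6a and tmem14cb are filled, and in the other panel hmox1a, hpxb, hebp2 and nfe2l2a are filled, all to the right of 0.

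On the breakdown side, hmox1a rose, and no setting removed its call. It encodes heme oxygenase 1, the inducible enzyme that opens the heme ring and releases iron, carbon monoxide and biliverdin. For hmox1a (ENSDARG00000027529, chromosome 3, 26011482 to 26017831, minus strand), FPKM was 6.98, 8.42 and 5.82 in the Lurasidone libraries, against 2.92, 2.21 and 2.62 in the control libraries, from 134 to 196 and from 45 to 78 fragments. The lowest Lurasidone library was above the highest control library. The log2FC was 1.17 (SE 0.18, 95% interval 0.76 to 1.57, limma adjusted p = 0.0058), which made it the 1 DEG of the set, where 3.83% of all tested genes were DEGs, 2.61% on the higher side and 1.22% on the lower. It passed under all 15 alternatives, with a limma adjusted p of 0.0034 to 0.025 and a log2FC of 1.05 to 1.43.

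Of 17 tested genes of heme breakdown, binding and transport other than hmox1a, 3 rose and 0 fell, beside 5.79 and 3.90% of all tested genes. Their median log2FC was 0.17. The gene hebp2, coding for a heme-binding protein, had 19.0, 25.1 and 19.2 FPKM in the Lurasidone libraries and 7.999, 9.98 and 8.76 FPKM in the control libraries (log2FC 1.15, limma adjusted p = 0.0048). The gene hpxb, a hemopexin gene whose product binds free heme in plasma, had 10.1, 13.9 and 11.1 FPKM in the Lurasidone libraries and 5.02, 4.94 and 5.67 FPKM in the control libraries (log2FC 1.02, limma adjusted p = 0.0076). Both passed under all 15 alternatives. The other hemopexin gene, hpxa, had a log2FC of 0.17 with overlapping groups (limma adjusted p = 0.704). The gene nfe2l2a encodes Nrf2, a transcription factor known to induce heme oxygenase 1, and had 25.2, 32.1 and 30.0 FPKM in the Lurasidone libraries against 14.1, 16.8 and 17.7 FPKM in the control libraries (log2FC 0.81, limma adjusted p = 0.0166). Its call was lost without Lurasidone replicate 2, Lurasidone replicate 3 or control replicate 1 (limma adjusted p up to 0.0846).

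The other heme oxygenase genes gave no call on their named rows, hmox2a with a log2FC of -0.05 (limma adjusted p = 0.873) and hmox2b with -0.09 (limma adjusted p = 0.859). The row named hmox2a carries the protein entry of a transmembrane protein, so its reading as a heme oxygenase gene is uncertain. The bach1 genes, which encode heme-sensing repressors of heme oxygenase 1, had log2FCs of 0.26 (bach1a, limma adjusted p = 0.363) and -0.11 (bach1b, limma adjusted p = 0.709). Hemopexin and several other plasma proteins are made in the liver, and among 15 tested liver markers 5 rose and 0 fell, with a median log2FC of 0.04 and summed levels of 3082 to 4231 FPKM in the Lurasidone group and 3802 to 4971 FPKM in the control group. The part of liver RNA in the rise of hpxb was not tested.

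Over the 6 libraries, the 5 protein-coding genes of at least 5 FPKM whose log2(FPKM + 1) followed hmox1a most closely were chia.2, gcdha, eif4ebp3l, chia.1 and si_ch211-117k10.3, with Pearson r between 0.9964 and 0.9985 among 8769 genes searched. These values are a description, since all points share the same 6 libraries and the same group difference. The gene eif4ebp3l, coding for a translation repressor of the 4E-BP family, had 69.3, 76.1 and 60.5 FPKM in the Lurasidone libraries and 35.1, 28.9 and 31.2 FPKM in the control libraries. The mitochondrial enzyme gene gcdha had 10.4, 11.5 and 8.69 FPKM in the Lurasidone libraries and 4.63, 3.64 and 4.44 FPKM in the control libraries. As with hmox1a, Lurasidone replicate 2 was the highest and control replicate 2 the lowest library for both genes. This shared order largely follows from choosing them by their likeness to hmox1a.

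Against alas1 within the same library, hmox1a was -4.45, -3.55 and -4.42 on log2(FPKM + 1) in the Lurasidone group and -5.89, -6.72 and -5.33 in the control group. The gene of heme breakdown thus stood closer to the gene of the first step of synthesis in each Lurasidone library, by 1.84 on average (exact permutation p = 0.1, adjusted 0.12, pair chosen after its values had been seen).

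Iron for heme enters cells by transferrin receptors, and tfr1a, the receptor needed by zebrafish red cells, rose. It had 18.9, 17.7 and 22.1 FPKM in the Lurasidone libraries against 8.82, 7.34 and 10.004 FPKM in the control libraries (log2FC 1.08, limma adjusted p = 0.0059), and passed under all 15 alternatives. Of 23 tested rows of iron uptake, storage and export genes, 2 rose and 4 fell, beside 5.79 and 3.90% of all tested genes. Their median log2FC was -0.21. The second gene to rise was tfr2, an iron-sensing receptor, with 3.12, 2.51 and 2.73 FPKM in the Lurasidone libraries and 1.77, 1.09 and 1.29 FPKM in the control libraries (log2FC 0.68, limma adjusted p = 0.0455). It lost its call when any library was left out (up to 0.12). The named row of tfr1b, looked at after its values were seen, had 13.8, 17.8 and 10.2 FPKM in the Lurasidone libraries and 7.16, 5.31 and 9.76 FPKM in the control libraries (limma adjusted p = 0.0601). It has an alternate contig row with 5.91, 7.82 and 7.62 FPKM in the Lurasidone libraries and 8.83, 9.73 and 10.96 FPKM in the control libraries, and the summed rows had a log2FC of only 0.27 (limma adjusted p = 0.374).

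The rows that fell were cp and 3 ferritin heavy chain-like genes. The gene cp encodes ceruloplasmin, the copper enzyme of plasma that oxidizes iron, and had 31.0, 15.7 and 36.9 FPKM in the Lurasidone libraries against 58.2, 57.1 and 47.4 FPKM in the control libraries (log2FC -1.01, limma adjusted p = 0.0497). Its call was lost in 11 of 15 alternatives, among them leaving out any library other than Lurasidone replicate 3 (up to 0.152). The ferritin-like row fthl27 (ENSDARG00000031776) had 43.6, 50.7 and 45.8 FPKM in the Lurasidone libraries and 82.0, 88.2 and 64.6 FPKM in the control libraries (log2FC -0.72, limma adjusted p = 0.0304). The rows fthl30 and fthl31 (ENSDARG00000113150) had log2FCs of -0.73 (limma adjusted p = 0.046) and -1.61 (limma adjusted p = 0.0143), the second from 0, 0 and 3 fragments in the Lurasidone libraries and 16, 11 and 6 in the control libraries. These genes have near-identical copies between which reads may be split, and the 3 calls were lost when some libraries were left out, fthl27 and fthl30 when any library other than control replicate 3 was left out (limma adjusted p up to 0.118 and 0.16) and fthl31 without Lurasidone replicate 2 or control replicate 1 (up to 0.0641). The calls of fthl30 and fthl31 were also lost with limma voom on fragments. This fthl31 row passed the filter through its control libraries, and only Lurasidone replicate 3, at 0.812 FPKM, reached 0.5 FPKM in the other group. A second fthl31 row (ENSDARG00000094210), with 77 to 125 fragments in each library, had a log2FC of only -0.43 (limma adjusted p = 0.148). A second fthl27 row (ENSDARG00000116586) had -0.60 (limma adjusted p = 0.0549) and fthl29 had -0.36 (0.276), while fthl28 was on the other side with 0.61 (0.116). The abundant ferritin gene fth1a had 848, 886 and 769 FPKM in the Lurasidone libraries and 747, 825 and 643 FPKM in the control libraries (limma adjusted p = 0.597).

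**Figure D3:**
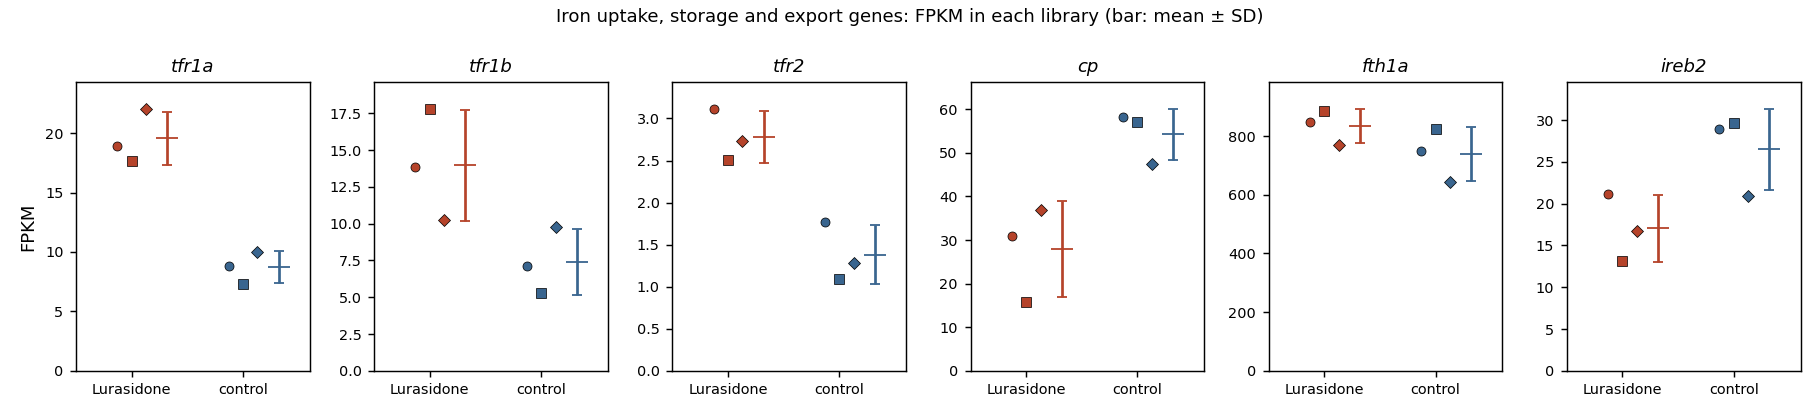
FPKM of 6 genes of iron uptake, storage and sensing in the 3 Lurasidone libraries (left in each panel) and the 3 control libraries (right), with the mean ± SD. The axes start at 0. The groups were apart for tfr1a, tfr1b and tfr2 (Lurasidone above) and for cp (Lurasidone below), and they overlapped for fth1a and for ireb2, an iron-sensing RNA-binding protein (limma adjusted p = 0.091). The panel of tfr1b shows its named row alone.

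Among the red cell genes, slc4a1a encodes band 3, the anion exchanger that anchors the red cell skeleton. For slc4a1a (ENSDARG00000012881, chromosome 3, 20065861 to 20092124, minus strand), FPKM was 64.6, 57.6 and 84.6 in the Lurasidone libraries, against 58.4, 60.8 and 48.4 in the control libraries. The groups overlapped, and the log2FC was 0.29 (SE 0.19, 95% interval -0.13 to 0.71, limma adjusted p = 0.346). For gata1a (ENSDARG00000013477, chromosome 11, 25411914 to 25418856, minus strand), the master transcription factor of the red cell lineage, FPKM was 0.286, 0.534 and 0.216 in the Lurasidone libraries and 0.372, 0.122 and 0.394 in the control libraries. This came from 8, 15 and 6 fragments in the Lurasidone libraries and 12, 3 and 12 in the control libraries. A difference was not detectable at this depth. Of the 3 erythroid members, then, 1 was tested on its named row and 0 were called, and a direct test of the erythroid against the general enzymes as groups was not possible on these rows.

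The wider list of red cell membrane and cytosol genes had 23 tested rows, of which 3 rose and 0 fell, with a median log2FC of 0.21. The groups were apart for 9 rows with Lurasidone above and for 0 with Lurasidone below, beside 17.1 and 16.2% of all tested genes. Both the 3 and the 9 include slc14a2, which was tested only because its Lurasidone libraries reached the filter. Its place in these counts is thus no support for a rise of the list. Not every gene of the list is particular to red cells. Among the 9 rows was tmod4, a tropomodulin gene known from skeletal muscle. Its mean was 72.8 FPKM in the Lurasidone group and 47.8 FPKM in the control group (limma adjusted p = 0.0565). The gene sptb, coding for the beta spectrin of the red cell skeleton, had 7.57, 8.85 and 9.55 FPKM in the Lurasidone libraries and 3.65, 5.24 and 5.32 FPKM in the control libraries (log2FC 0.76, limma adjusted p = 0.0311). The gene bnip3lb, related to the receptor that clears mitochondria from maturing mammalian red cells, had 28.5, 33.0 and 26.2 FPKM in the Lurasidone libraries and 19.5, 15.8 and 20.0 FPKM in the control libraries (log2FC 0.64, limma adjusted p = 0.0403). The urea transporter gene slc14a2 had 0.969, 3.42 and 1.42 FPKM in the Lurasidone libraries and 0.168, 0.284 and 0.306 FPKM in the control libraries (log2FC 1.14, limma adjusted p = 0.0346), and it passed the filter only through its Lurasidone libraries. Leaving out single libraries ended these calls as well: sptb without Lurasidone replicate 2, Lurasidone replicate 3 or control replicate 1 (limma adjusted p up to 0.122), slc14a2 when any control library was left out (up to 0.115) and bnip3lb when any library other than control replicate 3 was left out (up to 0.115).

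Other abundant red cell genes did not pass the test, in either direction. The carbonic anhydrase gene cahz had 57.7, 65.4 and 70.7 FPKM in the Lurasidone libraries and 42.5, 38.6 and 47.6 FPKM in the control libraries (log2FC 0.58, limma adjusted p = 0.0509). The gene rhag, coding for the Rh-associated ammonium transporter, had 97.6, 121 and 107 FPKM in the Lurasidone libraries and 80.1, 79.3 and 83.1 FPKM in the control libraries (log2FC 0.41, limma adjusted p = 0.123). The groups did not overlap for either gene. The gene prdx2, coding for an abundant peroxidase of red cells, had a log2FC of -0.18 (limma adjusted p = 0.569). The water channel gene aqp1a.1 had 83.4, 80.2 and 69.1 FPKM in the Lurasidone libraries and 134, 147 and 76.6 FPKM in the control libraries, with overlapping groups (log2FC -0.56, limma adjusted p = 0.165).

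Of the 20 tested erythroid regulators, 0 rose and 0 fell (limma), beside 5.79 and 3.90% of all tested genes. Among them 1 had an unadjusted p under 0.05, beside 6591 of all 23409 tested genes, and the median log2FC was 0.00. The 1 gene was klf17, a Krüppel-like factor of early zebrafish red cells, with 7.51, 6.75 and 6.32 FPKM in the Lurasidone libraries and 5.84, 3.62 and 5.08 FPKM in the control libraries (log2FC 0.44, limma adjusted p = 0.154). The regulators tal1 and lmo2 of blood stem cells had log2FCs of -0.32 each (limma adjusted p = 0.252 and 0.327). The erythropoietin receptor gene epor had 0.859, 1.71 and 2.51 FPKM in the Lurasidone libraries and 1.0996, 0.412 and 0.957 FPKM in the control libraries (limma adjusted p = 0.213). The gata1 copy gata1b reached at most 0.661 FPKM in a library and was not tested.

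The globins carry the heme made in red cells. Of 9 tested globin rows, 0 rose and 5 fell, with a median log2FC of -0.95, and their summed level was 1244 to 1350 FPKM in the Lurasidone libraries and 2117 to 3145 FPKM in the control libraries. Without control replicate 1, both hbae1.3 rows (limma adjusted p = 0.076 and 0.0506) and hbbe1.2 (0.101) lost their calls. The hbbe1.2 call was also lost without Lurasidone replicate 2 (limma adjusted p = 0.0545), without control replicate 2 (0.11), with no filter (0.11) and with a block for the replicate number. The rows hbbe1.1 and hbbe1.3 passed under all 15 alternatives. All 5 called rows lay on chromosome 3, and reads may be split between like copies, such as the rows that share the name hbae1.3. The globin gene hbae3, the largest part of the summed globin level, was not among the 5 (log2FC -0.90, limma adjusted p = 0.0517). Its mean was 676 FPKM in the Lurasidone group and 1285 FPKM in the control group. The globins hbae1.1 (log2FC 0.19, limma adjusted p = 0.52), hbbe2 (-0.13, 0.661) and hbae5 (-0.35, 0.614) were not called either, nor was slc4a1a. Within libraries, slc4a1a minus hbae3 on log2(FPKM + 1) was -3.33, -3.70 and -2.83 in the Lurasidone group and -4.47, -4.69 and -4.25 in the control group, with no overlap. The mean was 1.19 higher in the Lurasidone group (exact permutation p = 0.1, adjusted 0.12, pair chosen after its values had been seen). The median log2FC of the red cell membrane list, which also holds genes not particular to red cells, and that of the globins thus had opposite signs.

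**Figure D4:**
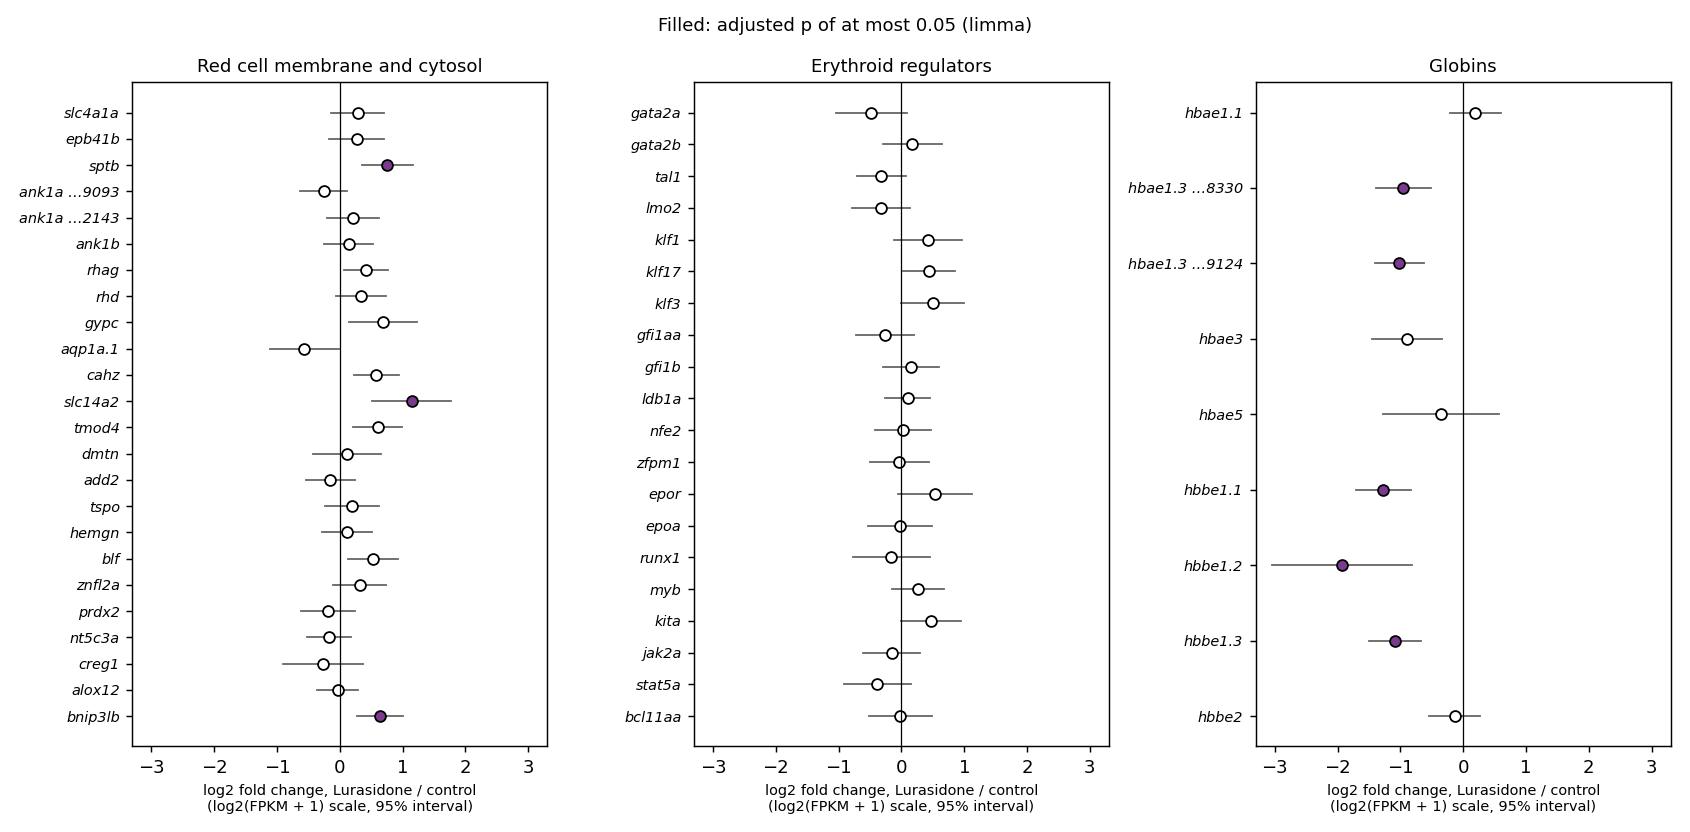
Log2 fold change (log2FC), Lurasidone over control, on the log2(FPKM + 1) scale with its 95% interval from limma, for tested red cell membrane and cytosol genes with slc4a1a (left), erythroid regulators (middle) and globins (right), on a shared axis range. Filled points have an adjusted p of at most 0.05. The 3 filled membrane and cytosol points lie to the right of 0, the 5 filled globin points to its left, and no regulator is filled. The filled membrane and cytosol points include slc14a2, which passed the filter only through its Lurasidone libraries.

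**Figure D5:**
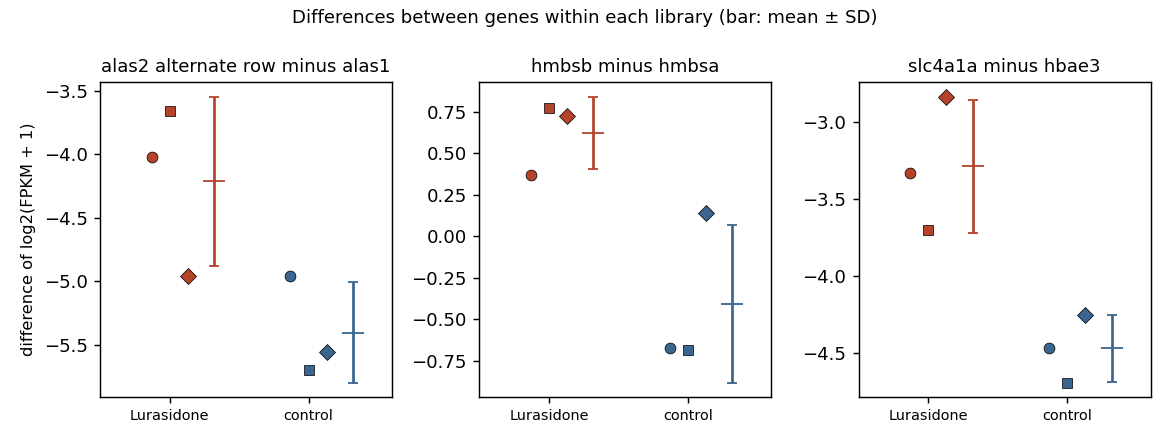
Differences of log2(FPKM + 1) between genes of the same library, for the alternate alas2 model minus alas1, hmbsb minus hmbsa and slc4a1a minus hbae3, in the 3 Lurasidone libraries (left in each panel) and the 3 control libraries (right), with the mean ± SD. The means are 1.19, 1.03 and 1.19 higher in the Lurasidone group, and Lurasidone replicate 3 and control replicate 1 nearly meet in the first panel.

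Other blood and tissue markers were read beside these results. Of 11 tested leukocyte markers 0 passed (limma), and 4 had an unadjusted p under 0.05, beside 6591 of all 23409 tested genes. Of the 11, 8 had a log2FC above 0 and 3 below, and the median was 0.24. Those 3 included lcp1 and mpx, the genes of the list with the highest means. Mean FPKM was 16.9 for lcp1 and 13.8 for mpx in the Lurasidone group, against 25.9 and 19.9 in the control group. The summed levels of the leukocyte list were 44.3 to 61.3 FPKM in the Lurasidone group and 51.7 to 72.3 FPKM in the control group. These sums leave out an alternate contig row of lyz, whose named row was near 0. The alternate row, looked at after its values were seen, had 18.2, 8.40 and 19.5 FPKM in the Lurasidone libraries. In the control libraries it had 31.0, 50.5 and 22.3 FPKM (log2FC -1.13, limma adjusted p = 0.0698). Of 6 tested thrombocyte markers, thbs1b and tbxas1 rose, 3 had a log2FC above 0 and 3 below, and the median was 0.09. The list summed to 77.8 to 86.7 FPKM in the Lurasidone group and 53.7 to 60.2 FPKM in the control group. Most of this sum was thbs1b, with a mean of 59.7 FPKM in the Lurasidone group and 32.8 FPKM in the control group. The defining thrombocyte receptor mpl was at or near 0 in all libraries, and itga2b reached at most 0.201 FPKM. The part of such differences in cell makeup in the red cell results was not tested.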

How the data were processed

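RNA of 3 Lurasidone and 3 control samples of zebrafish larvae was sequenced by the authors as paired reads of 150 bases, and 1 table was deposited with FPKM values for 39214 gene models, their length and position. The submitters' processing notes name GRCz11 (danRer11). The aligner, counter and use of strand are not given in the sources used here. Columns headed CK were taken as control, as in the study's supplement, and 0 columns belonged to unknown samples.

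Genes of at least 0.5 FPKM in at least 3 libraries were fitted on log2(FPKM + 1) with limma 3.58.1 (R 4.3.3, variance trend, group as the only term), and p-values were adjusted by Benjamini-Hochberg over all tested genes. A gene was called at an adjusted p of at most 0.05, and it was a DEG where the log2FC was also 1 or more in size. Fragments were read back from the deposited FPKM: 100% of values were whole multiples of a library constant within 0.05 fragment. The summed fragments came to 84.5 to 104% of the authors' denominators, so the FPKM values include a scaling by the authors. Differences between genes of 1 library were tested by two-sided exact permutation.

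The members and lists were chosen with earlier results of these data known. Named genes were all members, up to 4 called genes per list and direction, genes of the erythroid regulator, red cell and other heme synthesis lists, and the 5 genes most like hmox1a. The same search for alas2 was void, since its row was near 0, and it is not reported. The genes tfr1b, fth1a, fthl28, fthl29, ireb2, hpxa, hmox2a, hmox2b, bach1a and bach1b were named after their values had been seen. So were the uncalled rows of fthl27 and fthl31, the globins hbae1.1, hbae5 and hbbe2, and the leukocyte markers lcp1 and mpx.

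Alternatives were the omission of the filter or a threshold of 5 FPKM in it, a pseudocount of 0.1, limma without the trend, scaling by median ratios or quantiles, a block for the replicate number, limma voom on fragments, and the omission of each library in turn. Adding 16 alternate contig rows to the named rows of listed genes, where position, strand and protein entry were shared, was chosen after seeing the data. The fits were also run on simulated counts with the same dispersion for every gene and no outlying library. That setting is simpler than these data, so the run cannot show how the fits behave here. Listed genes without a row were not analysed here. The limma p-values set each group difference against the spread between libraries of the same group, moderated over all tested genes. They cover these 6 libraries only.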

Additional observations from a re-analysis of the deposited data

How the results depend on the processing

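No called result changed sign. Of the members, alad had a log2FC of 0.05 without control replicate 2. With the alternate contig rows added, hmox2a had 0.54 and hmox2b 0.10. The genes called higher numbered 1356 and those called lower 914. These became 899 and 431 with no filter, 867 and 807 with a filter of 5 FPKM, and lay between 512 and 1455 and between 152 and 1412 when 1 library was left out, both lowest without control replicate 1. Of the members, 2 rose, 1 with no filter (hmbsb lost, limma adjusted p = 0.0663) and 1 to 2 without a library, and 0 fell, or 0 to 1 without a library (alas1, without control replicate 3). Of the pathway lists, globins not counted, 10 rows rose and 4 fell, with no filter 6 and 2, with voom 13 and 2, and without a library 3 to 9 and 0 to 6. The alas2 to alas1 difference of 0.64 lay between 0.32 and 0.99 without a library. The cause of these shifts was not tested, and the number of genes or libraries differed between some of the settings. Of 120 gene results under 15 alternatives, 1595 of the values were the same in direction and side of the threshold, 81 lost a call, 24 gained one and 45 without a call changed sign.

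No pairing of the samples by replicate number was seen. Deviations of same-numbered libraries correlated at 0.12, -0.10 and 0.01, and those of differently numbered libraries at -0.22 to 0.19. With 3 libraries per group, such values cannot show whether the samples were paired. With the number as a block, 869 genes were called higher and 497 lower, both called members kept their calls (2 of 2), and of the pathway lists 6 rows rose and 0 fell. Depth limits gata1a and the alas2 row, with at most 15 and 4 fragments in a library.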

Other observations

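The gene hmox2a has an alternate contig row that shares with the named row the protein entry of a transmembrane protein. Either row may thus join neighbouring genes. The alternate row had 5.23, 5.59 and 5.18 FPKM in the Lurasidone libraries and 2.51, 3.33 and 2.74 FPKM in the control libraries (log2FC 0.72, limma adjusted p = 0.0245). The alternate row of the GATA cofactor gene zfpm1 had 1.00, 0.939 and 1.14 FPKM in the Lurasidone libraries and 2.25, 2.91 and 2.31 FPKM in the control libraries (log2FC -0.78, limma adjusted p = 0.0223), and summed with its named row it had -0.53 (limma adjusted p = 0.104). The alternate row of the red cell membrane gene stom had 1.27, 8.53 and 1.85 FPKM in the Lurasidone libraries and 1.09, 2.15 and 0.887 FPKM in the control libraries, where Lurasidone replicate 2 alone was high. These rows were looked at after their values had been seen.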
